A study of Arabidopsis thaliana with 72 samples.

Results

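The xyloglucan-modifying and expansin wall genes of Arabidopsis thaliana were followed in leaves in which plasmodesmata, the channels between plant cells, could be closed on demand. Members were taken by gene symbol: every XTH (xyloglucan endotransglucosylase/hydrolase), EXPA (alpha-expansin), EXPB (beta-expansin), EXLA (expansin-like A) and EXLB (expansin-like B) gene in the deposited count matrix. This gave 68 of 33602 genes, namely 33 XTH, 25 EXPA, 6 EXPB, 3 EXLA and 1 EXLB. Symbols are printed here without the AT prefix that some of them carry in the matrix. Of the 68, 45 passed the filter on low counts and were tested (24 XTH, 15 EXPA, 2 EXPB, 3 EXLA and 1 EXLB).

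Leaves of icals3m, PD-plug and the wild type Col-0 were compared. The icals3m line carries LexA::icals3m, an estradiol-inducible variant of the callose synthase gene CALS3, and the PD-plug line carries LexA::PD-Plug, about which the labels give nothing beyond the name and the stated effect, closure of plasmodesmata. The promoter that drives the LexA activator, the cells that express it and the number of independent insertions behind each line are not given in the sources used here. Plants of all 3 genotypes grew on MS plates for 5 weeks at 22 °C with 10 h of light. Leaves were painted on both faces with 20 µM β-estradiol 17-acetate or with 0.1% DMSO, both with 0.01% Silwet L-77 as wetting agent, and taken 12, 24, 48 or 72 h later. Each library pooled 2 leaves from 4 plants, and each of the 24 groups (3 genotypes, 2 treatments, 4 times) had 3 biological replicates, 72 libraries in all. Col-0 leaves painted with estradiol carry neither construct and give the effect of the inducer itself. Samples taken at 12 h fall at the opposite time of day from the other 3 times, so that time of day and time since painting cannot be told apart between 12 h and 24 h.

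Growing plant cells are held in a wall of cellulose fibrils tied together by xyloglucan and embedded in pectin. XTH enzymes cut xyloglucan chains and either rejoin them to another chain or hydrolyse them. Expansins loosen the contacts between cellulose and xyloglucan without cutting, most readily at acid pH, and alpha-expansins are the classical mediators of acid growth. Expansin-like A and B proteins share the expansin fold, but wall loosening has not been established for them. In rosette leaves these families are known for cell expansion, for stomatal movement (EXPA1) and for responses to touch, hormones and the day cycle (XTH22, also called TCH4, is a classical touch-induced gene).

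Total counts per library lay between 33207020 and 55367880 (median 47474144.5), so that 3 counts correspond to at most 0.0941 CPM (counts scaled to a library's size) in any library. CALS3 was at 1447 to 5857 CPM in estradiol-treated icals3m leaves, against 79.15 to 285.1 CPM in all other libraries. The leaf identity of the samples was clear: RBCS1A, a Rubisco small subunit gene, stood at 8371 to 16601 CPM, and the root-hair genes COBL9 and RHD6 had 0 counts in all 72 libraries. A second deposited matrix, labelled STAR, holds counts of the same libraries with totals of 18063512 to 28177578. The ratio of the main total to the STAR total was 1.368 for PD-plug 48 h estradiol replicate 1 and 1.902 to 2.067 for the other libraries. That library therefore stands apart, and results for PD-plug at 48 h are given with and without it. Throughout, a member is called where edgeR's quasi-likelihood test gave a Benjamini-Hochberg adjusted p under 0.05 over the 21241 genes tested. The percentage called among all those genes is printed beside the members' counts as background.

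The 23 members that could not be tested included 16 with 0 counts in every library. Among these were EXPA7 and EXPA18, known as root-hair expansins, the root-expressed XTH20 and XTH21, and EXPB2, EXPB4, EXPB5 and EXPB6. XTH14 and XTH13 had the largest totals among the untested members, 32 and 29 counts over all 72 libraries. Per length of transcript, XTH27 was the most abundant member, at 183 CPM per kb averaged over all libraries (TAIR10.1 chromosome 2, bases 385171 to 387478, plus strand). EXPA1 followed at 105 CPM per kb (chromosome 1, 26141726 to 26143538, plus strand), XTH31 at 64.9, EXPA8 at 57.3, EXPA10 at 48.4 and XTH28 at 47.2 CPM per kb. These 6 genes differed in how far their level moved. The highest group mean was 1.87 times the lowest for XTH28 and 2.92 times for XTH27, but 45.0 times for EXPA8 and 61.7 times for XTH31. XTH27 has been linked in Arabidopsis to vein development in leaves, XTH31 belongs with XTH32 to the branch of the family with hydrolase activity, and EXPA1 acts in guard cells.

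In Col-0 leaves without estradiol the families followed the time of sampling. In Col-0 leaves painted with DMSO, 33 of 45 members differed between 24 h and 12 h (73.3%, against 62.7% of all genes tested), 19 higher and 14 lower at 24 h. The families divided. Of 15 alpha-expansins 10 were higher and 1 was lower at 24 h, with a median log2 difference of 1.64, whereas of 24 XTH genes 6 were higher and 12 lower, with a median of -1.17. The median of all genes tested was -0.02. EXPA8 averaged 3.65 ± 0.996 CPM at 12 h, 131 ± 7.46 CPM at 24 h, 134 ± 20.6 CPM at 48 h and 78.6 ± 5.84 CPM at 72 h (SD, n = 3 each). EXPA8 thus had its low point at 12 h, and XTH31 likewise stood at 5.66 ± 0.744, 173 ± 9.86, 184 ± 20.5 and 103 ± 31.6 CPM at those 4 times. The largest rises at 24 h were those of EXPB3 (log2 7.26 ± 0.62 SE, adjusted p = 5.75e-15), XTH32 (5.77 ± 0.27, adjusted p = 5.88e-26) and EXPB1 (5.37 ± 0.75, adjusted p = 5.83e-09). XTH23 ran the other way, with 78.2 ± 23.2 CPM at 12 h, 1.60 ± 0.430 CPM at 24 h, 0.850 ± 0.314 CPM at 48 h and 0.594 ± 0.476 CPM at 72 h. XTH25 also fell at 24 h (log2 -6.07 ± 0.81, adjusted p = 5.41e-09), and XTH33, a membrane-associated XTH, was called lower (adjusted p = 0.00142) with 0 counts in all 3 libraries at 24 h.

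Later steps changed fewer members, as they did genes at large. Between 48 h and 24 h, 13 members differed (28.9%, against 27.1% of all genes), 5 higher and 8 lower at 48 h. EXLA1 (log2 1.82), EXPA10 (0.87) and EXPA11 (0.72) rose most, and XTH6 (-2.16) and EXPB1 (-2.11) fell. EXPA16 was called lower as well, with 0 counts in all 3 DMSO libraries at 48 h. The calls for EXPA10 (adjusted p = 0.52) and EXPA16 (0.0667) were lost in the STAR matrix. Between 72 h and 48 h, 9 members differed (20%, against 12.8% of all genes), 2 higher and 7 lower at 72 h. EXLB1 (1.68) and EXPA5 (0.68) rose, and XTH24 (-1.86), XTH19 (-1.65) and EXPA1 (-1.07) fell most.

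Estradiol painted on Col-0 leaves moved XTH genes in both directions at 12 h, as it did genes at large. Of 24 XTH genes tested 5 were higher and 7 lower, against 21.9% of all genes higher and 16.7% lower. In Col-0 at 12 h, 15 of 45 members differed between estradiol and DMSO (33.3%, against 38.6% of all genes), 8 higher and 7 lower with estradiol. XTH22, the touch gene TCH4, was at 17.8, 21.4 and 23.2 CPM with estradiol and at 128, 95.0 and 148 CPM with DMSO. Its closest relative XTH23 was at 1.84, 1.55 and 6.37 CPM with estradiol and at 71.9, 58.8 and 104 CPM with DMSO. XTH18 was at 1.04, 0.837 and 0.637 CPM with estradiol and at 26.9, 22.2 and 28.9 CPM with DMSO. For all 3 genes every estradiol library lay below every DMSO library. The fitted falls were 5.95-fold for XTH22 (log2 -2.57 ± 0.26 SE, adjusted p = 2.26e-11), 23.7-fold for XTH23 (-4.57 ± 0.65, adjusted p = 1.24e-07) and 31.2-fold for XTH18 (-4.96 ± 0.79, adjusted p = 1.18e-06). XTH19 had 0 counts in all 3 estradiol libraries and 30, 16 and 18 counts with DMSO. Against a floor of 3 counts over the group it was 22.8-fold lower, which is no strict bound since the counts are estimates. XTH29 was also called lower (log2 -3.53, adjusted p = 0.0052), a call lost in the STAR matrix (adjusted p = 0.15). XTH18 and XTH19 share 88% of their coding bases and XTH22 and XTH23 share 80.4%, so that reads could be split between them in counting.

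The same 3 genes fell in both lines at 12 h. In icals3m leaves XTH22 was at 18.0, 13.2 and 12.9 CPM with estradiol and at 98.9, 50.1 and 34.6 CPM with DMSO (log2 -2.06, adjusted p = 7.1e-08). In PD-plug leaves it was at 21.8, 26.5 and 33.1 CPM with estradiol and at 44.4, 105 and 90.3 CPM with DMSO (-1.56, adjusted p = 3.12e-06). XTH18 and XTH23 fell by 4.30 and 3.57 on the log2 scale in icals3m and by 3.02 and 2.83 in PD-plug leaves. None of the 3 effects was called different from that in Col-0 in either line. Higher with estradiol in Col-0 at 12 h were XTH25 (log2 1.88), XTH6 (1.26), XTH9 (1.22) and XTH7 (0.92), together with EXPA8 (0.80), EXPA6 (0.56), EXPA11 (0.56) and XTH28 (0.45). At 24 h and 72 h no member was called in Col-0 by edgeR or by DESeq2. At an unadjusted p under 0.05 there were 9 and 4 members, and the background was 0.984% and 0.0141% of all genes. At 48 h 3 members were lower in Col-0 (6.67%, against 6.67% of all genes). These were EXPA10 (log2 -1.37 ± 0.22, adjusted p = 0.000286), XTH24 (-2.04 ± 0.44, adjusted p = 0.00281) and XTH29, whose 3 estradiol libraries had 0 counts against 16, 13 and 12 with DMSO. In the STAR matrix the calls for EXPA10 (adjusted p = 0.165) and XTH29 (0.276) were lost, as was that for XTH9 at 12 h (0.488).

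**Figure D1:**
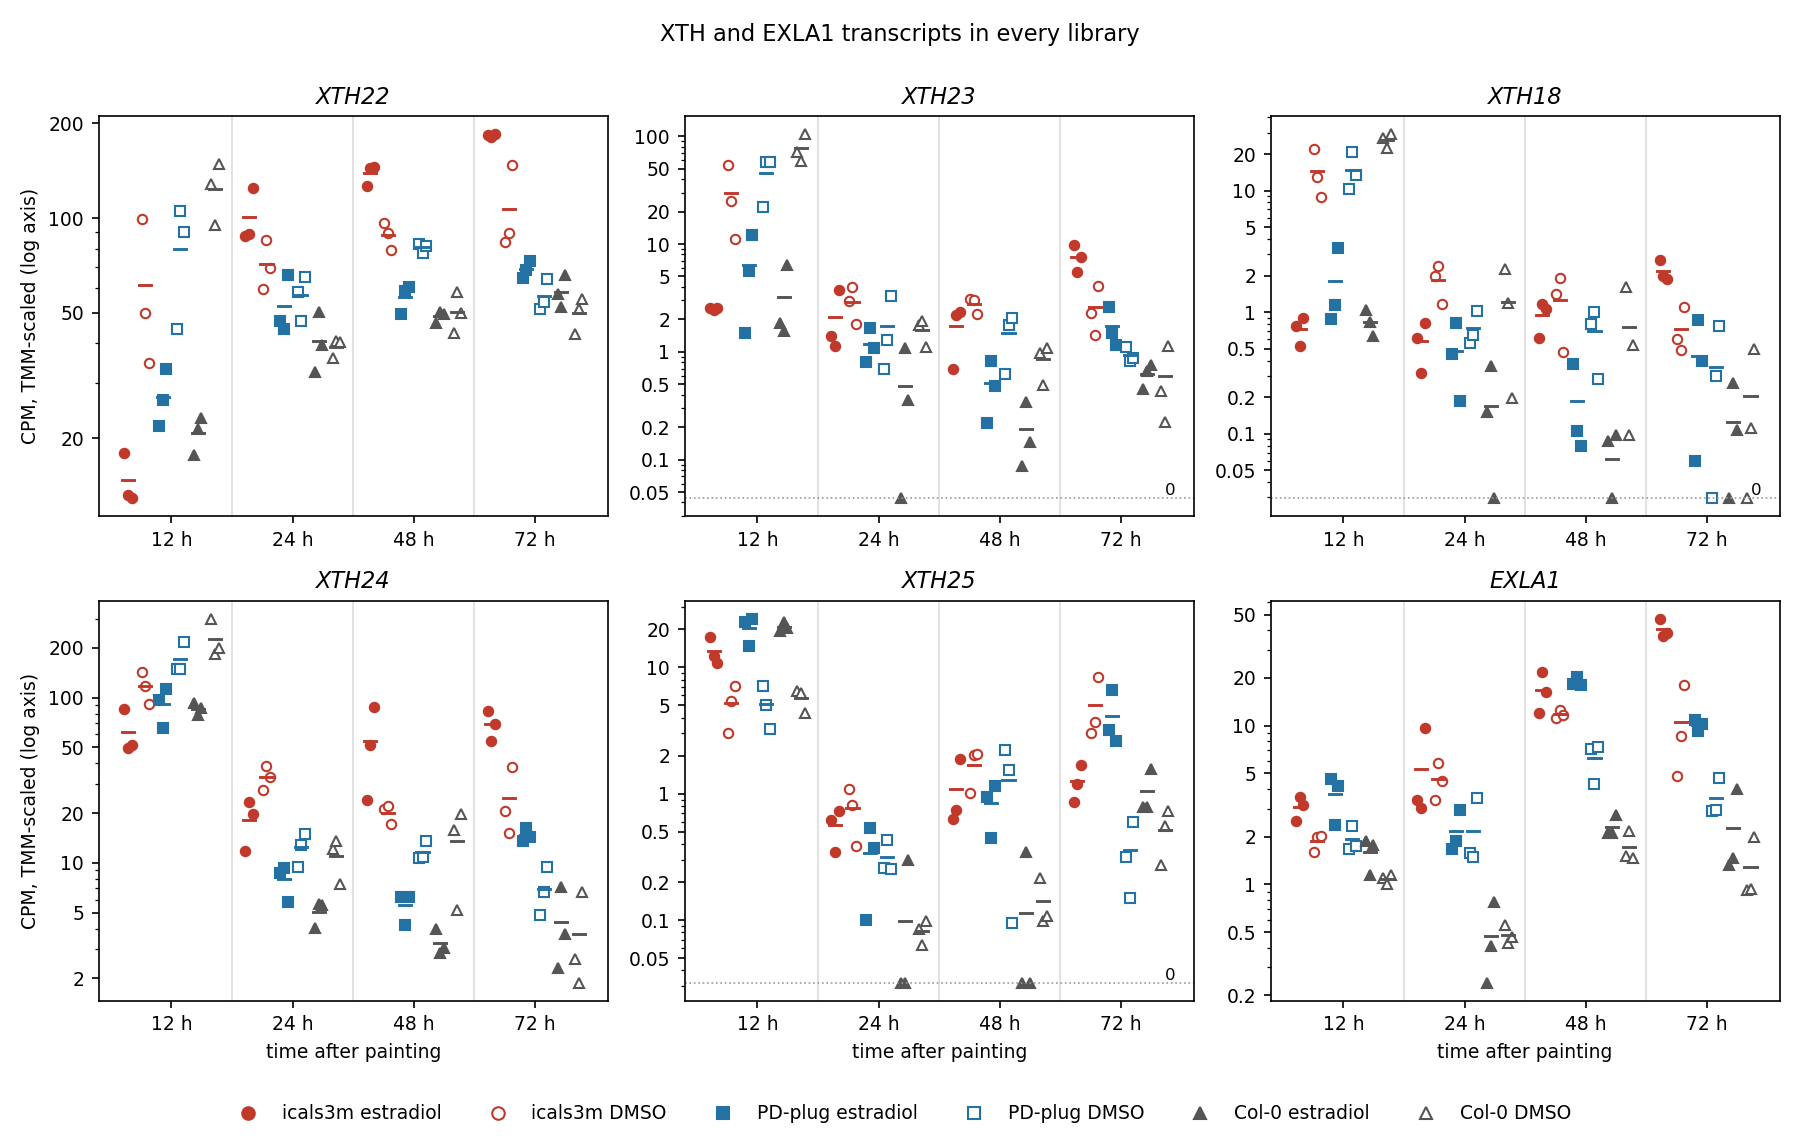
Level in CPM (log axis) of XTH22, XTH23, XTH18, XTH24, XTH25 and EXLA1 in each library at 12, 24, 48 and 72 h, with icals3m in red circles, PD-plug in blue squares and Col-0 in grey triangles, filled for estradiol and open for DMSO, bars for the means of 3 libraries and a dotted line for 0. At 12 h the filled symbols of XTH22, XTH23 and XTH18 lie below the open ones in all 3 genotypes, and at 48 h XTH24 in icals3m with estradiol (23.9, 51.6 and 87.2 CPM) lies above all other groups.

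Within icals3m, most members lower with estradiol from 24 h on were alpha-expansins. In icals3m at 12 h 4 members were higher and 3 lower (15.6%, against 17.2% of all genes), the 3 lower ones being the XTH genes above. The 4 higher were XTH6 (log2 0.99), XTH7 (0.69), EXPA6 (0.69) and XTH28 (0.21). Of these, XTH7 (adjusted p = 0.0746) and XTH28 (0.0791) were not called in the STAR matrix. At 24 h 0 were higher and 4 lower (8.89%, against 6.48%), at 48 h 1 was higher and 10 lower (24.4%, against 18.3%), and at 72 h 4 were higher and 9 lower (28.9%, against 21.5%). Lower alone were 9.06% of all genes at 48 h and 11.1% at 72 h. Of the 15 alpha-expansins 7 were lower and 0 higher at 48 h (median log2 -0.61), and again 7 were lower and 0 higher at 72 h (median -0.69). The 24 XTH genes gave 1 higher and 3 lower at 48 h (median 0.01) and 3 higher and 2 lower at 72 h (median 0.20). EXPA10, an alpha-expansin of leaf and petiole growth, fell at 24 h (log2 -1.67 ± 0.23, adjusted p = 5.83e-06), 48 h (-1.66 ± 0.23, adjusted p = 3.74e-07) and 72 h (-1.98 ± 0.23, adjusted p = 4.28e-09). EXPA9 fell at 24 h (-1.13) and 48 h (-0.61), and EXPA1 and XTH7 fell at 24 h by 0.55 and 0.64. In the STAR matrix the calls for EXPA1 (adjusted p = 0.292) and XTH7 (0.169) at 24 h and for EXPA10 at 48 h (0.0704) were lost, and the 24 h value of EXPA10 was -3.00. Of the 11 and 13 members called at 48 and 72 h, 7 were shared (63.6% and 53.8%), 6 of them lower at both times, namely EXPA11, EXPA10, EXPA3, EXPA6, EXPA5 and EXPA1, and 1, XTH24, higher at both. Higher at 72 h besides XTH24 (1.49) were EXLA1 (1.95), XTH22 (0.78) and XTH31 (0.54).

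Within PD-plug, members were called most often at 12 h, as were genes at large. At 12 h 1 member was higher and 9 lower (22.2%, against 27.1% of all genes), at 24 h none was called by edgeR or by DESeq2 (5 at an unadjusted p under 0.05, background 0.49%), at 48 h 1 was higher and 6 lower (15.6%, against 13.3%), and at 72 h 2 were higher and 2 lower (8.89%, against 2.65%). Besides the XTH genes above, those lower at 12 h were EXPA11 (log2 -1.22), EXPA1 (-1.203), EXPA3 (-0.78) and EXPA8 (-0.63), XTH29 (-2.90) and XTH19, which had 0 counts in all 3 estradiol libraries against 12, 11 and 20 with DMSO. The 1 member higher at 12 h was XTH25 (2.01). At 48 h EXPA10 (-1.15), EXPA1 (-0.91), XTH16 (-0.74), EXPA8 (-0.63), EXPA9 (-0.63) and EXPA11 (-0.52) were lower and EXLA1 (1.60) was higher. In the STAR matrix EXLA1 was the 1 member called at 48 h: EXPA10 stood at -0.13 (adjusted p = 0.983), and the adjusted p was 0.374 for EXPA1, 0.0707 for XTH16 and 0.104 for EXPA8. At 12 h the calls for XTH19 (adjusted p = 0.0577) and XTH29 (0.363) were lost there. Without replicate 1 of the estradiol group, the library that stands apart, 6 members were called at 48 h, 2 higher and 4 lower. Of the members called at 48 h in icals3m and PD-plug, 4 were shared (36.4% of the icals3m list and 57.1% of the PD-plug list), EXPA11, EXPA10, EXPA1 and EXPA9, all lower in both in the main matrix, whereas none of the 4 was called for PD-plug in the STAR matrix, nor EXPA10 for icals3m. At 72 h 3 were shared (23.1% and 75%): EXPA8 was lower and EXLA1 higher in both, and XTH25 moved in opposite directions. For PD-plug the STAR matrix kept the XTH25 call at 72 h, and lost those for EXPA8 (adjusted p = 0.058), EXLA1 (0.0701) and XTH16 (0.102).

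**Figure D2:**
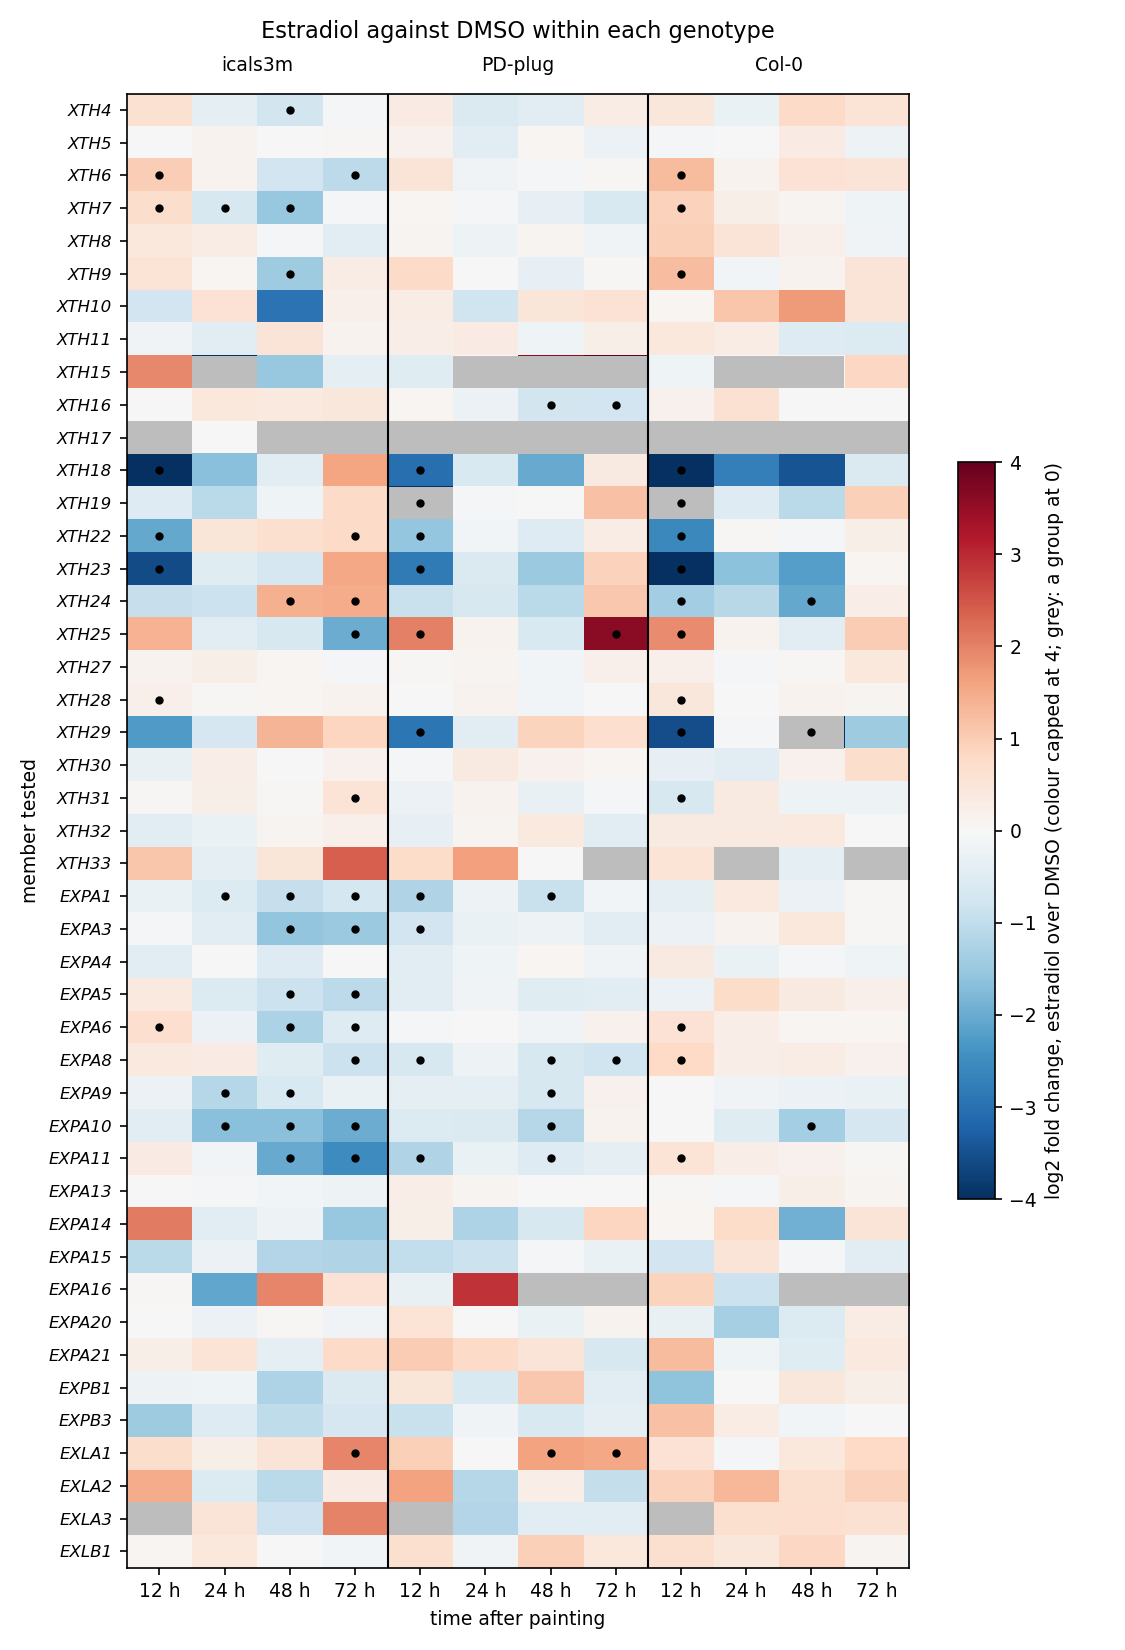
Log2 fold change, estradiol over DMSO, of the 45 tested members (rows) in icals3m, PD-plug and Col-0 at 12, 24, 48 and 72 h (columns), with colour capped at 4, grey where a group had 0 counts in all 3 libraries and a dot where the adjusted p was under 0.05. The dots in icals3m at 48 and 72 h fall mainly on alpha-expansins, 7 lower at each time, and the 12 h columns of all 3 genotypes share the falls of XTH18, XTH22 and XTH23.

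The response of each line to estradiol was then set against that of Col-0. The Col-0 effect was subtracted: the log2 ratio of estradiol to DMSO in a line minus the same log2 ratio in Col-0. Closure of plasmodesmata is not measured by these counts. For icals3m 1 member was higher and 0 lower at 12 h (2.22%, against 3.16% of all genes) and edgeR called none at 24 h (9 at an unadjusted p under 0.05, 2 by DESeq2, background 0.259%). At 24 h the nearest alpha-expansins were EXPA1 (log2 -0.95, adjusted p = 0.0606) and EXPA10 (-1.199, adjusted p = 0.0846). At 48 h 2 were higher and 7 lower (20%, against 13.4% of all genes), and at 72 h 1 was higher and 8 lower (20%, against 11.3%). Lower alone were 7.11% of all genes at 48 h and 6.29% at 72 h. Alpha-expansins made up 5 of the 7 lower members at 48 h and 6 of the 8 at 72 h, and none of the 15 tested was higher. Their median was -0.68 at 48 h and -0.75 at 72 h, against medians of 0.00 and 0.17 for the 24 XTH genes and of -0.01 at both times for all genes. Over the 45 members the median was -0.32 at 48 h and -0.28 at 72 h. It was -0.29 and -0.22 with members that had a group at 0 entered at the floor of 3 counts. EXPA11, EXPA3, EXPA5 and EXPA1 were lower at both times, 44.4% of the members called at each.

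EXPA11 showed the largest difference among the alpha-expansins at both times. At 48 h it stood at 16.9, 14.3 and 9.57 CPM in icals3m leaves with estradiol and at 58.2, 59.3 and 48.7 CPM with DMSO, while Col-0 leaves had 65.8, 69.0 and 77.4 CPM with estradiol and 56.6, 69.7 and 62.4 CPM with DMSO. At 72 h the values were 6.25, 6.18 and 7.82 CPM in icals3m with estradiol and 36.6, 45.9 and 34.1 CPM with DMSO, and in Col-0 58.4, 54.5 and 49.3 CPM with estradiol and 51.5, 51.5 and 53.3 CPM with DMSO. The icals3m estradiol libraries lay below all others at both times, without overlap. Within icals3m the gene was 4.08-fold lower at 48 h and 5.74-fold lower at 72 h. Relative to the Col-0 effect, the log2 difference was -2.20 ± 0.22 (SE) at 48 h (adjusted p = 8.24e-10) and -2.58 ± 0.23 at 72 h (adjusted p = 1.43e-11). At 12 h the same contrast was -0.23 (adjusted p = 0.705), with 9.25, 8.13 and 12.1 CPM in icals3m with estradiol and 7.26, 6.81 and 9.39 CPM with DMSO, against 6.52, 5.48 and 5.75 CPM and 4.02, 3.44 and 4.54 CPM in Col-0. EXPA11 (AT1G20190) lies on chromosome 1 at bases 6998335 to 6999839, minus strand.

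EXPA3 was at 5.27, 4.49 and 4.26 CPM in icals3m with estradiol at 48 h and at 16.8, 13.7 and 11.1 CPM with DMSO, against 22.6, 17.9 and 20.0 CPM with estradiol and 14.4, 13.97 and 16.6 CPM with DMSO in Col-0. At 72 h it was at 2.62, 2.90 and 3.42 CPM in icals3m with estradiol and at 8.06, 10.5 and 6.41 CPM with DMSO, against 10.3, 11.8 and 11.4 CPM with estradiol and 11.8, 12.0 and 8.62 CPM with DMSO in Col-0. The icals3m estradiol libraries were again below every other one of those groups. The difference from the Col-0 effect was -2.00 ± 0.25 at 48 h (adjusted p = 6.11e-08) and -1.53 ± 0.26 at 72 h (adjusted p = 2e-05).

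EXPA5, an alpha-expansin that acts in growth downstream of brassinosteroids in Arabidopsis, was at 3.76, 3.91 and 2.78 CPM in icals3m with estradiol at 48 h and at 5.99, 6.71 and 6.34 CPM with DMSO, against 14.5, 8.38 and 10.4 CPM with estradiol and 8.76, 8.56 and 8.78 CPM with DMSO in Col-0. At 72 h the libraries had 3.44, 5.54 and 5.49 CPM in icals3m with estradiol and 9.74, 9.85 and 10.1 CPM with DMSO, against 16.0, 14.7 and 17.1 CPM with estradiol and 14.8, 14.8 and 12.3 CPM with DMSO in Col-0. At both times the icals3m DMSO libraries lay below those of Col-0 too, and the estradiol libraries lower still. Relative to Col-0 the differences were -1.23 ± 0.34 (adjusted p = 0.00987) and -1.22 ± 0.34 (adjusted p = 0.00993). EXPA6 stood at 12.9, 15.4 and 8.58 CPM in icals3m with estradiol at 48 h and at 32.4, 30.4 and 26.1 CPM with DMSO, against 30.1, 31.3 and 34.4 CPM with estradiol and 27.6, 31.3 and 32.5 CPM with DMSO in Col-0. The difference was -1.34 ± 0.23 at 48 h (adjusted p = 3.01e-05), and EXPA6 was not called at 72 h.

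EXPA1, an alpha-expansin known from guard cells but measured here in whole leaves, had the smallest of these differences. At 48 h it was at 77.3, 102 and 71.1 CPM in icals3m with estradiol and at 138, 150.4 and 188 CPM with DMSO, against 211, 295 and 213 CPM with estradiol and 288, 297 and 269 CPM with DMSO in Col-0. At 72 h it was at 35.8, 40.4 and 56.1 CPM in icals3m with estradiol and at 66.0, 83.7 and 63.7 CPM with DMSO, against 151, 141 and 127 CPM with estradiol and 161, 121 and 124 CPM with DMSO in Col-0. All icals3m libraries, DMSO included, were below the Col-0 libraries of the same treatment. The differences were -0.68 ± 0.24 (adjusted p = 0.0472) and -0.73 ± 0.24 (adjusted p = 0.0352). Both calls were lost in the STAR matrix (adjusted p = 0.343 and 0.327) and when 1 library was left out, in 7 of 12 cases at each time.

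EXPA8 and EXPA10 were called at 72 h. EXPA8 was at 23.0, 32.0 and 37.7 CPM in icals3m with estradiol and at 58.9, 67.8 and 43.4 CPM with DMSO, against 94.8, 81.2 and 88.5 CPM with estradiol and 82.2, 81.7 and 71.8 CPM with DMSO in Col-0 (log2 -1.04 ± 0.28, adjusted p = 0.00971). The call was lost without icals3m 72 h estradiol replicate 1. EXPA10 was at 20.9, 29.2 and 25.4 CPM in icals3m with estradiol and at 92.9, 100.4 and 104 CPM with DMSO, against 104, 118 and 87.2 CPM with estradiol and 199, 140.3 and 151 CPM with DMSO in Col-0 (-1.31 ± 0.31, adjusted p = 0.00316). Its difference from Col-0 was -0.29 at 48 h (adjusted p = 0.634). The counts of EXPA10 depend on the matrix: the main count was 1.55 to 85.2 times the STAR count across libraries, against 1.12 to 1.83 times for EXPA11 and 1.11 to 1.90 times for EXPA3. In the STAR matrix the 72 h call for EXPA10 was lost (adjusted p = 0.626).

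**Figure D3:**
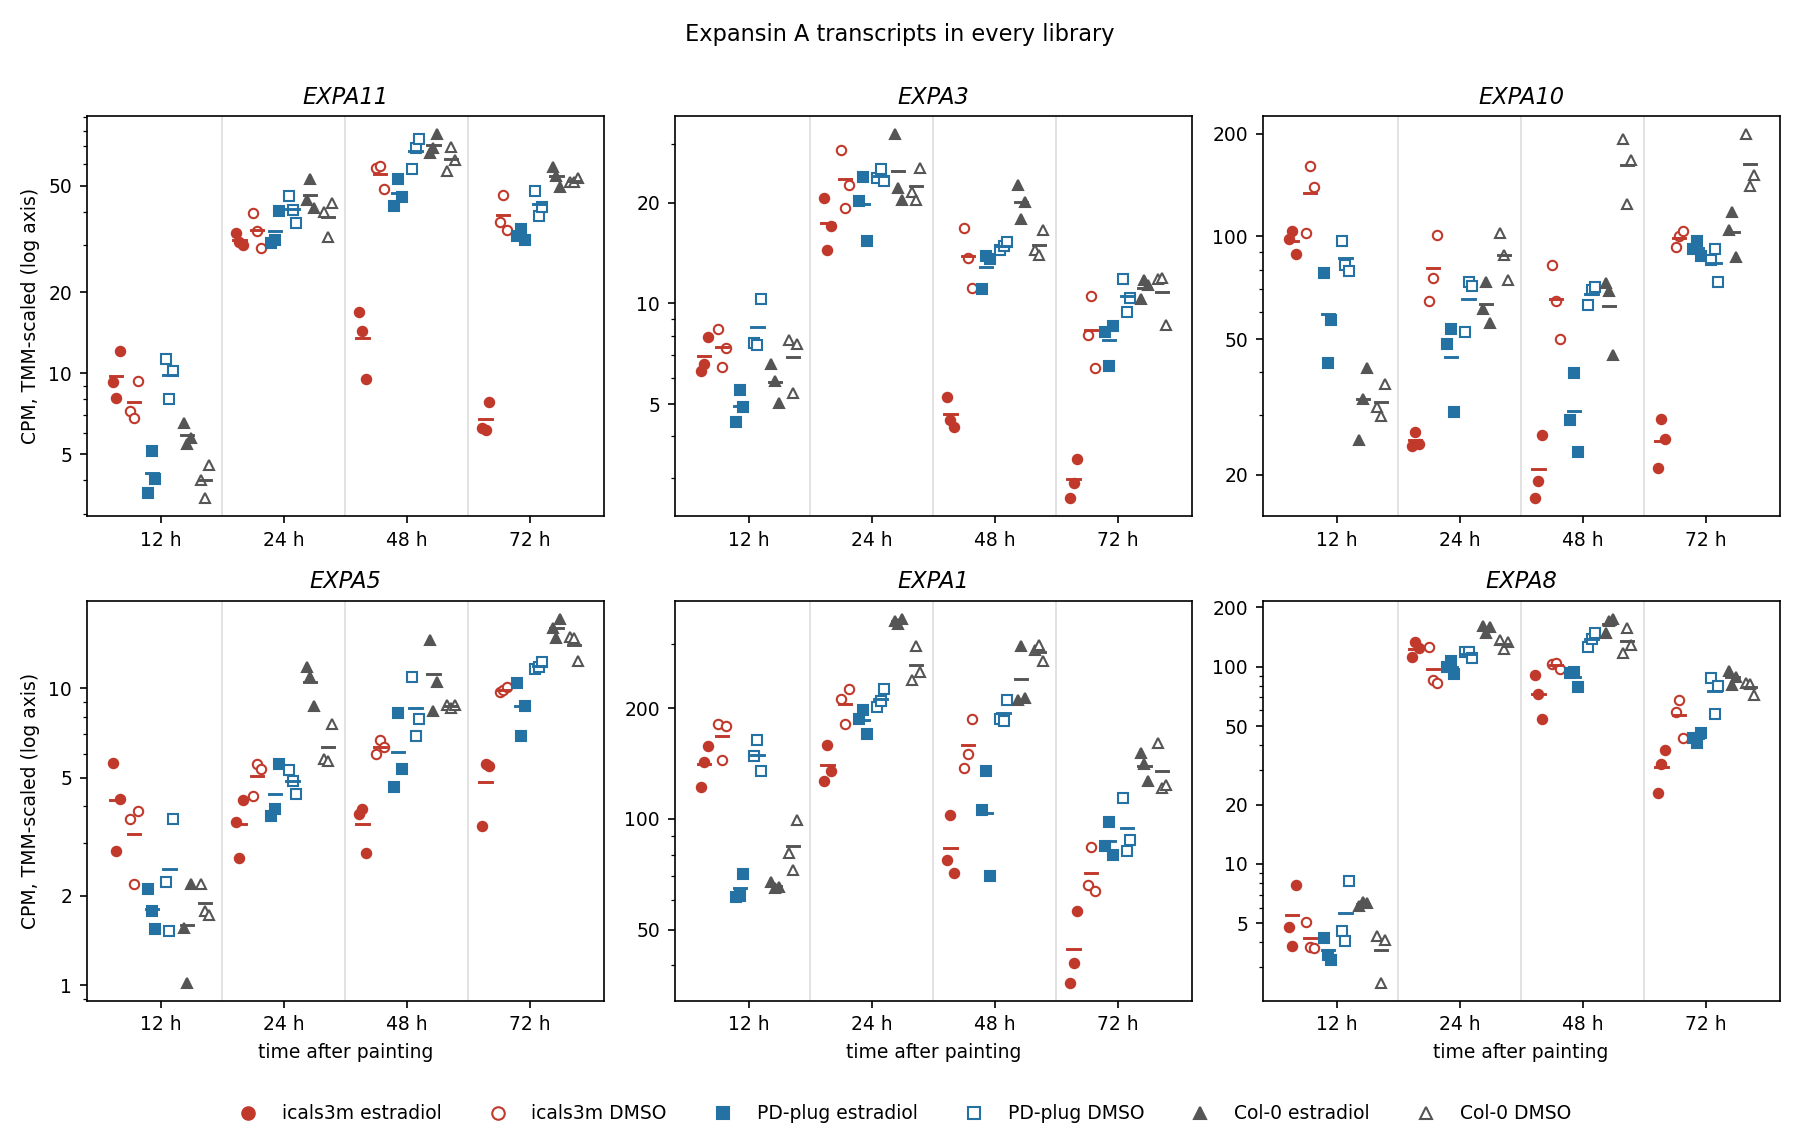
Level in CPM (log axis) of EXPA11, EXPA3, EXPA10, EXPA5, EXPA1 and EXPA8 in each library at 12, 24, 48 and 72 h, with icals3m in red circles, PD-plug in blue squares and Col-0 in grey triangles, filled for estradiol and open for DMSO, and bars for the means of 3 libraries. The filled red symbols of EXPA11 separate from the other groups at 48 h (9.57 to 16.9 CPM) and 72 h (6.18 to 7.82 CPM).

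The stretches of DNA before these genes were searched for 5 short motifs. The alpha-expansins above had been called lower in icals3m relative to Col-0 at 48 h, at 72 h or at both. The window was the 300 bases upstream of the annotated gene start in RefSeq's TAIR10.1 assembly, on both strands, for 27443 nuclear protein-coding genes. The windows of 4 genes are printed 5′ to 3′ on the strand of the gene, because they belong to alpha-expansins lower in icals3m and hold an auxin response element (TGTCTC), a brassinosteroid response element (CGTGTG) or a rapid stress response element (CGCGTT). Capitals mark the motif or its reverse complement, and no 2 motifs overlap in these windows.
EXPA10, chr1:9259132-9259431, plus strand: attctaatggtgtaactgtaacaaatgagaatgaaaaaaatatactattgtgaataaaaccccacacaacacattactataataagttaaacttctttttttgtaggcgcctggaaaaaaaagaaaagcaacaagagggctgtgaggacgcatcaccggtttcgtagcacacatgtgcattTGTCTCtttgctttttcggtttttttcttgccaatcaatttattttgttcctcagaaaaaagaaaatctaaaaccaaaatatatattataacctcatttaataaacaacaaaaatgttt
EXPA1, chr1:26141426-26141725, plus strand: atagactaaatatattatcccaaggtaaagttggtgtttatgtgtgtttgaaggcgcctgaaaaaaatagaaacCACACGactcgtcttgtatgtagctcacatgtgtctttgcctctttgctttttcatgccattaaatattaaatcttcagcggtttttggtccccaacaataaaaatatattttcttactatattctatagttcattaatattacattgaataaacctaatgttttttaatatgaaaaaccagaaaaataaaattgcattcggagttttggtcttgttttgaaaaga
EXPA6, chr2:12433797-12434096, minus strand: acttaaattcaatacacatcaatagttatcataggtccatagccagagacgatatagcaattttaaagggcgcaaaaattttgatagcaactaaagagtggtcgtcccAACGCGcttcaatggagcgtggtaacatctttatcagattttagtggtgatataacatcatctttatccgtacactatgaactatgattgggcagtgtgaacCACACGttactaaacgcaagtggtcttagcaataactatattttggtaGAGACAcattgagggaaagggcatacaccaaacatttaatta
EXPA5, chr3:11013452-11013751, minus strand: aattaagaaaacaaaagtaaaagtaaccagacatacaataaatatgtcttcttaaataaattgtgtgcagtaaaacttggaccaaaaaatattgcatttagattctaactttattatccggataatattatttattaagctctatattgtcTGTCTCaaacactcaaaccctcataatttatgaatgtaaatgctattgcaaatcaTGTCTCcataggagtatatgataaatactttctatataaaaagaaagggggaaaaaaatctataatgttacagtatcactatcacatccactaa
The auxin element stands once before EXPA10, 119 bases upstream counted from its first base, once before EXPA6 and at 2 places before EXPA5. Before EXPA1 there is 1 brassinosteroid element, 226 bases upstream, and before EXPA6 there is 1 of each of the 3 motifs. None of the motifs searched was found before EXPA11, EXPA3 or EXPA8, which are also alpha-expansins lower in icals3m.

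Of the 11 members lower in icals3m at 48 or 72 h relative to Col-0, 4 had the auxin element in this window (36.4%; EXPA10, EXPA6, EXPA5 and XTH6), against 5 of the 45 tested members (11.1%) and 13% of all genes. The brassinosteroid element was present before 3 of the 11 (27.3%; EXPA1, EXPA6 and XTH25), 6 of the 45 (13.3%) and 6.11% of all genes. The rapid stress element was before 1 of the 11 (EXPA6), 4 of the 45 (8.89%) and 3.08% of all genes. The evening element (AAAATATCT), known from clock-regulated genes, was before 0 of the 11 and 1 of the 45 (2.22%), against 2.79% of all genes. The G-box (CACGTG) was before 0 of the 45 members and 7.09% of all genes. These are matches of letters in 1 window and were not tested.

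Among the XTH genes icals3m gave changes in both directions. XTH7 was at 5.09, 8.60 and 7.27 CPM in icals3m with estradiol at 48 h and at 19.5, 19.2 and 20.5 CPM with DMSO, against 22.9, 12.2 and 17.7 CPM with estradiol and 17.1, 11.3 and 20.3 CPM with DMSO in Col-0. The icals3m estradiol libraries lay below the other 3 groups, and the difference was -1.62 ± 0.30 (adjusted p = 0.000105). XTH4, an abundant enzyme of expanding tissue, was at 32.2, 37.4 and 26.7 CPM in icals3m with estradiol and at 42.9, 64.8 and 53.7 CPM with DMSO, against 8.64, 10.96 and 18.6 CPM with estradiol and 5.50, 6.66 and 10.6 CPM with DMSO in Col-0. Its level was thus higher in icals3m than in Col-0 with either treatment, and the difference in effect was -1.50 ± 0.40 (adjusted p = 0.00835).

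XTH24, known as MERI5B from meristem libraries, rose. At 48 h it was at 23.9, 51.6 and 87.2 CPM in icals3m with estradiol and at 21.1, 22.0 and 17.2 CPM with DMSO, against 3.97, 2.84 and 3.04 CPM with estradiol and 15.9, 5.18 and 19.6 CPM with DMSO in Col-0. The gene moved up with estradiol in icals3m (log2 1.43) and down in Col-0 (-2.04), and the difference was 3.47 ± 0.58 (adjusted p = 3.22e-05). XTH29 was also called higher, on few reads, and the call was lost in the STAR matrix (adjusted p = 0.184). XTH29 had 22, 8 and 29 counts in icals3m with estradiol and 7, 16 and 0 with DMSO, against 0, 0 and 0 with estradiol and 16, 13 and 12 with DMSO in Col-0.

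At 72 h XTH25 and XTH6 were lower and XTH31 was higher relative to Col-0. XTH25 was at 0.866, 1.20 and 1.69 CPM in icals3m with estradiol and at 3.03, 3.70 and 8.33 CPM with DMSO, against 0.792, 0.792 and 1.57 CPM with estradiol and 0.271, 0.555 and 0.728 CPM with DMSO in Col-0 (log2 -3.01 ± 0.89, adjusted p = 0.0183). The estradiol libraries of both genotypes overlapped, and it was the DMSO libraries of icals3m that lay apart. The call was lost in the STAR matrix (adjusted p = 0.0512) and in 4 of the 12 cases with 1 library left out. XTH6 was at 7.10, 8.20 and 10.0 CPM in icals3m with estradiol and at 12.3, 17.7 and 22.6 CPM with DMSO, against 2.26, 4.38 and 8.06 CPM with estradiol and 2.48, 3.97 and 3.94 CPM with DMSO in Col-0 (-1.56 ± 0.49, adjusted p = 0.029, lost in 5 of 12 such cases). XTH31 was at 60.1, 68.6 and 51.6 CPM in icals3m with estradiol and at 43.8, 48.4 and 31.9 CPM with DMSO, against 85.0, 84.3 and 100.03 CPM with estradiol and 135, 100.7 and 72.1 CPM with DMSO in Col-0 (0.73 ± 0.25, adjusted p = 0.045). That call was lost in 8 of 12 such cases and in the STAR matrix (adjusted p = 0.101). At 12 h the 1 member called, XTH19, had 17, 0 and 3 counts in icals3m with estradiol and 4, 20 and 8 with DMSO, against 0, 0 and 0 with estradiol and 30, 16 and 18 with DMSO in Col-0. No fold is given for it, and the call was lost without icals3m 12 h estradiol replicate 1.

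Summed CPM of the mesophyll markers RBCS1A and RCA moved with these results. In icals3m the sum was 16690 to 17073 with estradiol and 22020 to 24635 with DMSO at 48 h, and 15103 to 16366 with estradiol and 21483 to 22446 with DMSO at 72 h. In Col-0 it was 23698 to 26075 with estradiol and 22797 to 24416 with DMSO at 48 h, and 23350 to 24004 with estradiol and 22725 to 24804 with DMSO at 72 h. For both markers the icals3m effect was called below that of Col-0 at 48 and 72 h, as it was for 1 of 3 epidermis and 1 of 2 phloem markers. The part of these shifts in the expansin results was not tested. In leaf samples of this kind, fewer cells of a type and less RNA per cell cannot be told apart.

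In PD-plug leaves 0 members were higher and 4 lower relative to Col-0 at 12 h (8.89%, against 8.3% of all genes, 6.19% lower). EXPA11 was at 3.57, 5.15 and 4.03 CPM in PD-plug with estradiol and at 11.3, 8.03 and 10.2 CPM with DMSO, against 6.52, 5.48 and 5.75 CPM with estradiol and 4.02, 3.44 and 4.54 CPM with DMSO in Col-0 (log2 -1.78 ± 0.25, adjusted p = 2.17e-06). It moved down in PD-plug and up in Col-0, and in neither genotype did the treatments overlap. EXPA8 was at 4.23, 3.47 and 3.25 CPM in PD-plug with estradiol and at 4.60, 4.07 and 8.22 CPM with DMSO, against 6.11, 6.44 and 6.36 CPM with estradiol and 4.32, 2.502 and 4.12 CPM with DMSO in Col-0 (-1.43 ± 0.32, adjusted p = 0.00234). EXPA1 was at 61.5, 61.7 and 70.9 CPM in PD-plug with estradiol and at 148, 164 and 135 CPM with DMSO, against 67.3, 65.0 and 65.3 CPM with estradiol and 80.7, 72.8 and 99.3 CPM with DMSO in Col-0 (-0.85 ± 0.24, adjusted p = 0.0158). For EXPA8 the PD-plug treatments overlapped, and for EXPA1 they did not. With estradiol, EXPA1 overlapped between PD-plug and Col-0, and it was the PD-plug DMSO libraries that lay apart, above those of Col-0. For EXPA11 the PD-plug DMSO libraries also lay above those of Col-0, and the PD-plug estradiol libraries lay below. The EXPA1 call was lost in the STAR matrix (adjusted p = 0.223). XTH28, whose level varies little, differed by -0.45 ± 0.09 (adjusted p = 0.000659). The mesophyll sum at 12 h was 11260 to 13745 CPM in PD-plug with estradiol and 16007 to 17684 CPM with DMSO, against 16979 to 18291 CPM with estradiol and 15044 to 16159 CPM with DMSO in Col-0, and its part in these results was not tested.

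At 48 h 1 member was higher and 2 lower in PD-plug relative to Col-0 (6.67%, against 5.56% of all genes). EXPA8 was at 93.0, 94.3 and 79.1 CPM in PD-plug with estradiol and at 126, 138 and 149 CPM with DMSO, against 149, 169 and 174 CPM with estradiol and 117, 157 and 129 CPM with DMSO in Col-0 (log2 -0.92 ± 0.28, adjusted p = 0.0371). EXPA11 was at 42.0, 52.9 and 45.5 CPM in PD-plug with estradiol and at 57.8, 68.9 and 74.8 CPM with DMSO (-0.69 ± 0.22, adjusted p = 0.0484), beside the Col-0 values above. XTH29, with 20, 8 and 18 counts in PD-plug with estradiol and 12, 12 and 4 with DMSO, was called higher (adjusted p = 0.0155) against the estradiol libraries of Col-0 at 0. Without PD-plug 48 h estradiol replicate 1, 1 member was called: the adjusted p was 0.0675 for EXPA8, 0.155 for EXPA11 and 0.0479 for XTH29. None of the 3 was called in the STAR matrix. The mesophyll sum at 48 h was 17738 to 20604 CPM in PD-plug with estradiol and 24208 to 24790 CPM with DMSO, against 23698 to 26075 CPM and 22797 to 24416 CPM in Col-0. The PD-plug effect on both of its markers was called below that of Col-0, and its part in these results was not tested. Neither edgeR nor DESeq2 called a member for PD-plug at 24 h (8 at an unadjusted p under 0.05, background 0.033%) or at 72 h (5 at an unadjusted p under 0.05, background 0.0942%).

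**Figure D4:**
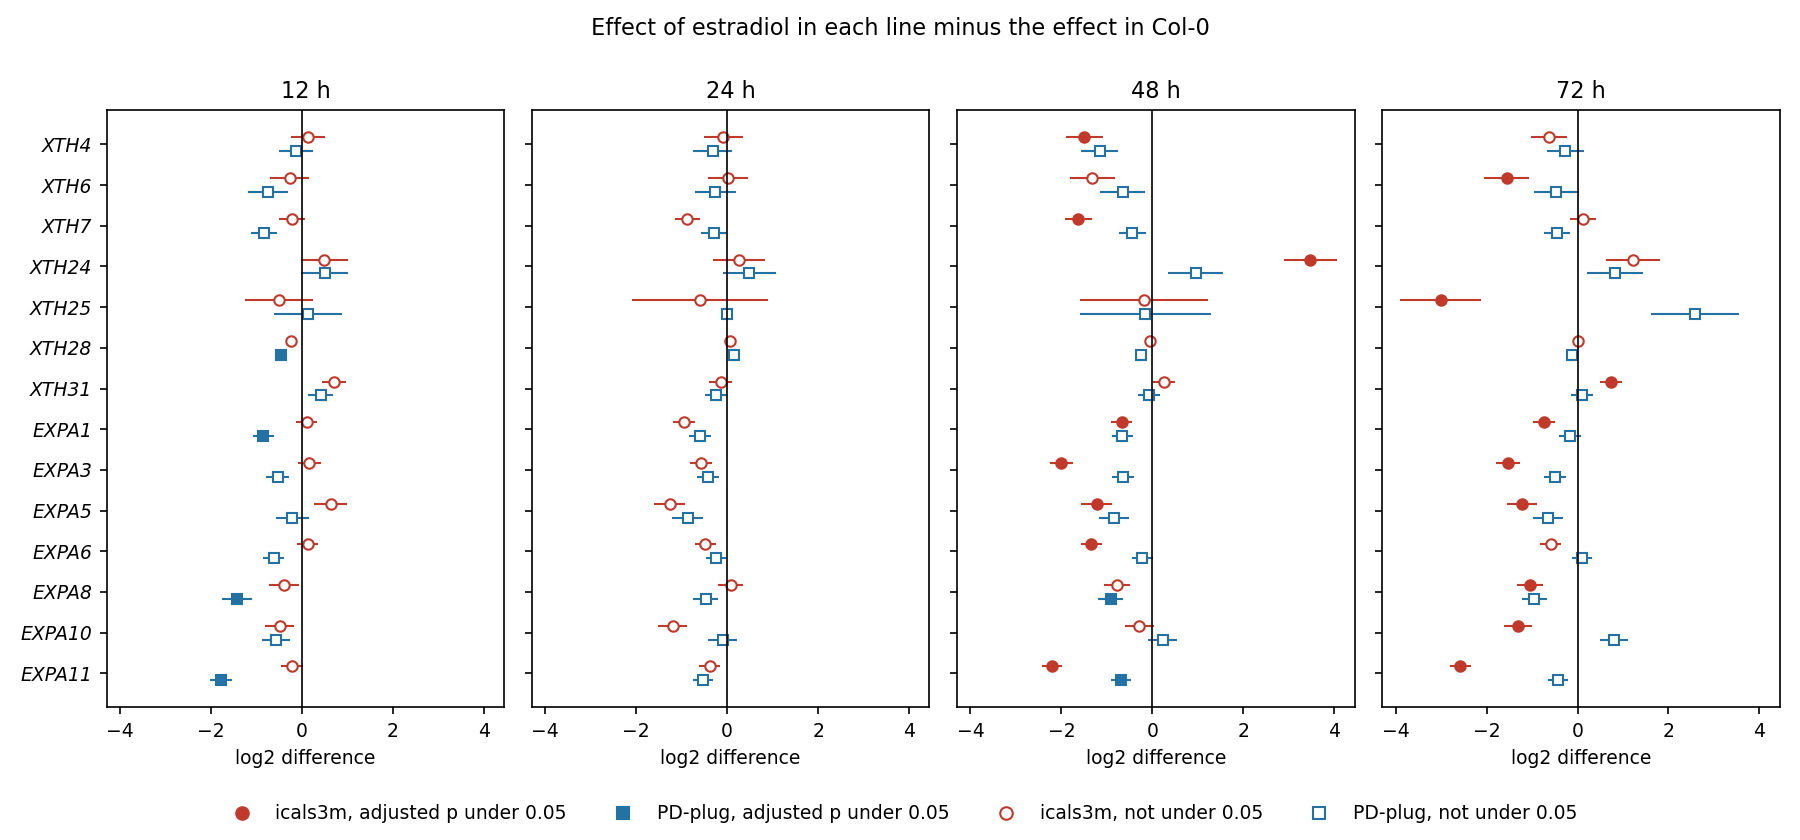
Log2 difference between the effect of estradiol in a line and that in Col-0, with bars of 1 SE, for members called in at least 1 of the 8 comparisons, at 12, 24, 48 and 72 h, with icals3m in red circles and PD-plug in blue squares, filled where the adjusted p was under 0.05. No error bar could be given for XTH25 in PD-plug at 24 h, where the difference was near 0. XTH19 and XTH29, which had a group at 0, are not drawn, and EXPA11 reaches -2.20 at 48 h and -2.58 at 72 h in icals3m.

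The effects of the lines were compared with each other directly, as the icals3m log2 effect minus the PD-plug log2 effect. At 12 h 3 members were higher in icals3m and 0 lower (6.67%, against 1.19% of all genes), at 24 h none was called by edgeR or by DESeq2 (6 at an unadjusted p under 0.05, background 0.358%), at 48 h 3 were higher and 4 lower (15.6%, against 5.16%), and at 72 h 1 was higher and 4 lower (11.1%, against 5.35%). EXPA11 changed side with time: the difference was 1.55 ± 0.24 at 12 h (adjusted p = 0.00013), -1.51 ± 0.22 at 48 h (adjusted p = 6.41e-06) and -2.14 ± 0.23 at 72 h (adjusted p = 3.51e-09). At 48 h EXPA11 was at 9.57 to 16.9 CPM in icals3m with estradiol and at 42.0 to 52.9 CPM in PD-plug with estradiol. At 72 h it was at 6.18 to 7.82 CPM in icals3m and at 31.3 to 34.4 CPM in PD-plug with estradiol. EXPA3 differed by -1.36 ± 0.25 at 48 h and -1.04 ± 0.26 at 72 h, and EXPA6 by -1.12 ± 0.23 at 48 h. Both mesophyll markers differed between the lines too, higher in icals3m at 12 h and lower at 72 h. Their sum at 12 h was 14216 to 17279 CPM in icals3m with estradiol and 14668 to 16465 CPM with DMSO, against 11260 to 13745 CPM and 16007 to 17684 CPM in PD-plug. At 72 h it was 15103 to 16366 CPM in icals3m with estradiol and 21483 to 22446 CPM with DMSO, against 20147 to 20557 CPM and 20724 to 23646 CPM in PD-plug. At 48 h 0 of the 2 was called, while 1 of 3 epidermis and 1 of 2 phloem markers were lower in icals3m, and at 72 h 1 of 3 epidermis markers was lower and 1 of 3 guard cell markers higher. The part of these shifts in the differences between the lines was not tested.

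At 72 h XTH25 differed most between the lines, by -5.59 ± 0.89 (adjusted p = 2.85e-05). It was at 0.866, 1.20 and 1.69 CPM in icals3m with estradiol and at 3.03, 3.70 and 8.33 CPM with DMSO, against 3.21, 6.62 and 2.62 CPM with estradiol and 0.315, 0.150 and 0.603 CPM with DMSO in PD-plug. The gene was 3.96-fold lower with estradiol in icals3m and 12.1-fold higher in PD-plug, without overlap in either. XTH24 was higher in icals3m by 2.52 ± 0.56 at 48 h (adjusted p = 0.00343), with 6.21, 4.24 and 6.18 CPM in PD-plug with estradiol and 10.7, 10.8 and 13.6 CPM with DMSO beside the icals3m values above. XTH16 differed by 1.13 ± 0.29 at 48 h (adjusted p = 0.0128) and 1.24 ± 0.30 at 72 h (adjusted p = 0.00565). At 72 h its level was 4.80, 5.00 and 4.75 CPM in icals3m with estradiol and 3.38, 3.23 and 3.93 CPM with DMSO, against 1.80, 3.00 and 3.22 CPM with estradiol and 4.77, 4.30 and 4.66 CPM with DMSO in PD-plug. XTH16 thus lay higher with estradiol than with DMSO in every icals3m library at 72 h and lower in every PD-plug library. The rise within icals3m was not itself called. XTH22 showed the same opposition in level at 48 h, though its change was not called within either line. It was at 127, 144 and 145 CPM in icals3m with estradiol and at 96.8, 89.6 and 79.0 CPM with DMSO. In PD-plug it was at 49.6, 58.8 and 60.5 CPM with estradiol and at 82.9, 77.6 and 81.5 CPM with DMSO. The difference between the lines for XTH22 was 1.17 ± 0.34 (adjusted p = 0.0336). Without PD-plug 48 h estradiol replicate 1 its adjusted p was 0.0861, and 6 members were called at 48 h, 2 higher and 4 lower in icals3m. At 72 h EXPA10 differed by -2.12 ± 0.32 (adjusted p = 8.82e-06), a call lost in the STAR matrix, with 92.1, 96.8 and 87.7 CPM in PD-plug with estradiol and 85.1, 92.0 and 73.7 CPM with DMSO beside the icals3m values above.

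EXLA1, an expansin-like gene, was among the members higher with estradiol in both lines. At 72 h it was at 46.9, 36.8 and 38.2 CPM in icals3m with estradiol and at 4.83, 8.64 and 18.1 CPM with DMSO, 3.87-fold higher in the fit. In PD-plug it was at 10.9, 9.25 and 10.3 CPM with estradiol and at 2.91, 2.93 and 4.69 CPM with DMSO, 2.89-fold higher. The PD-plug call was lost in the STAR matrix (adjusted p = 0.0701) and without PD-plug 72 h DMSO replicate 1 or replicate 2, and the icals3m call was lost in a fit on the 6 libraries compared (adjusted p = 0.0761). In Col-0 it stayed between 1.33 and 3.98 CPM with estradiol and between 0.925 and 1.98 CPM with DMSO. Neither line's effect on EXLA1 was called different from that in Col-0. EXLA1 shares 86.3% of its coding bases with EXLA3 and 84.7% with EXLA2.

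The lines also differed from Col-0 without estradiol. Averaged over the 4 times, DMSO-painted icals3m leaves had 13 members higher and 5 lower than DMSO-painted Col-0 leaves (40%, against 19.1% of all genes, 9.07% higher), and PD-plug leaves had 9 higher and 0 lower (20%, against 6.18% of all genes, 3.56% higher). In icals3m 11 of 24 XTH genes were higher and 2 lower (median log2 0.51), and 0 of 15 alpha-expansins were higher and 3 lower (median -0.03). The median of all genes was 0.00 in icals3m and 0.01 in PD-plug. In PD-plug 6 XTH genes and 1 alpha-expansin, EXPA11 (0.30), were higher. EXLA1 (log2 2.46 ± 0.21 SE in icals3m, adjusted p = 4.42e-13, and 1.58 ± 0.21 in PD-plug, adjusted p = 8.43e-07), XTH9 (2.37 ± 0.23 and 1.36 ± 0.23), XTH4 (1.73 ± 0.14 and 0.99 ± 0.14) and XTH6 (1.69 ± 0.17 and 1.05 ± 0.17) were higher in both lines. Both lines were set against the same Col-0 libraries, so these are not independent. XTH9 is known from shoot apices in Arabidopsis.

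XTH4 averaged 71.9 ± 11.5, 23.6 ± 3.32, 53.8 ± 10.99 and 49.0 ± 17.8 CPM in icals3m with DMSO at 12, 24, 48 and 72 h. It averaged 90.6 ± 11.2, 12.0 ± 3.09, 28.2 ± 10.4 and 18.8 ± 3.14 CPM in PD-plug and 64.9 ± 3.22, 6.46 ± 0.814, 7.58 ± 2.66 and 11.5 ± 3.75 CPM in Col-0 (SD, n = 3 each). XTH9 averaged 22.5 ± 4.17 CPM in icals3m and 7.95 ± 5.26 CPM in PD-plug, against 1.38 ± 0.512 CPM in Col-0, with DMSO at 48 h. For XTH9 the main count was 1.26 to 32.0 times the STAR count across libraries, so its level depends on the matrix. XTH25 (2.48 ± 0.37) and EXLA2 (5.66-fold) were higher in icals3m, as was XTH33 (adjusted p = 0.00899, a call lost in the STAR matrix). XTH33 had no counts in the Col-0 DMSO group at 24 h, so no size is given for it. Lowest in icals3m were EXPA15 (-0.69 ± 0.22), EXPA4 (-0.39 ± 0.13), XTH31 (-0.36 ± 0.09) and EXPA1 (-0.28 ± 0.08). The calls for EXPA4 (adjusted p = 0.0724) and EXPA1 (log2 -0.14, adjusted p = 0.725) were lost in the STAR matrix. For EXPA1 the mean covers unlike times: at 48 and 72 h its icals3m DMSO libraries lay further below those of Col-0 than this mean. In PD-plug XTH30 (0.61), XTH27 (0.48) and XTH28 (0.16) completed the list with EXLA2 (3.25-fold, adjusted p = 0.049), whose call was lost in 16 of 24 cases with 1 library left out. EXLA2 moved with the matrix, to log2 4.23 in icals3m and 3.53 in PD-plug in the STAR matrix.

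**Figure D5:**
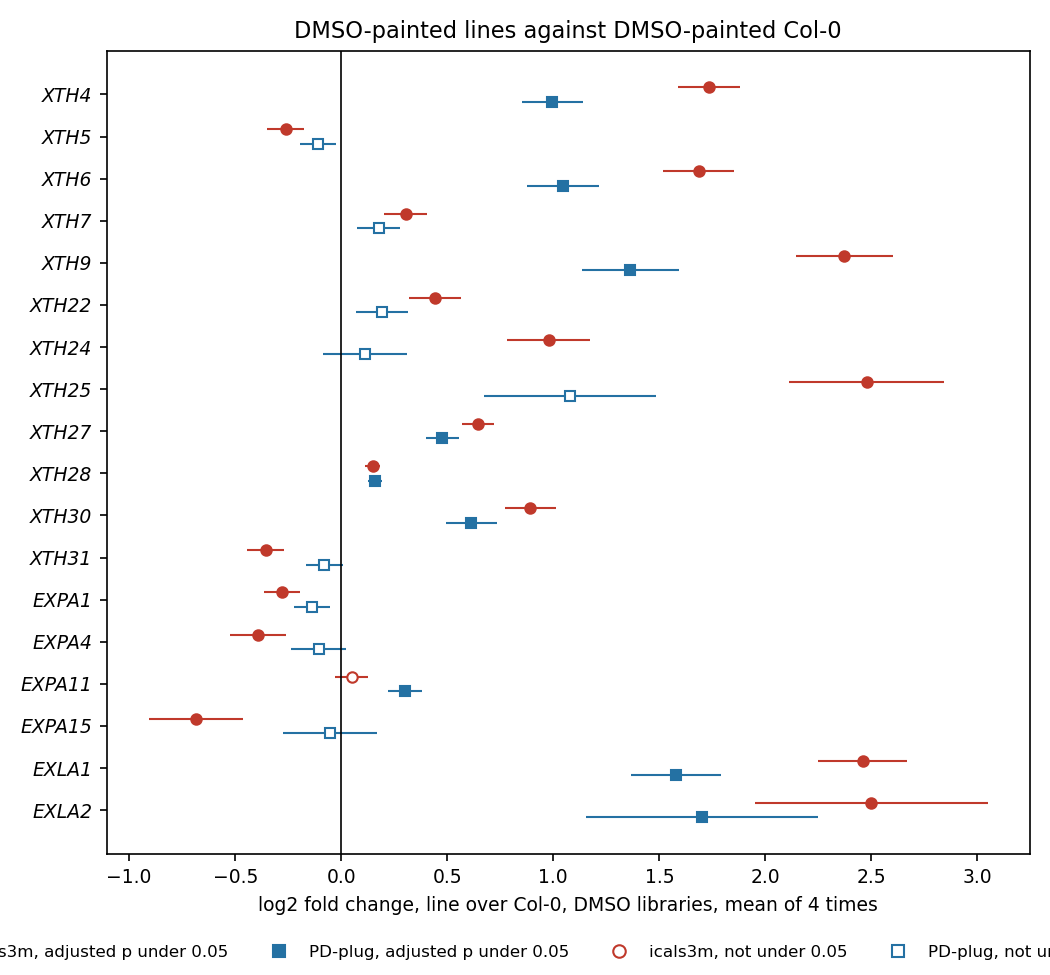
Log2 fold change, line over Col-0, in DMSO-painted leaves averaged over 12, 24, 48 and 72 h, with bars of 1 SE, for the members called in either line other than XTH33, with icals3m in red circles and PD-plug in blue squares. EXLA1, XTH9, XTH4 and XTH6 lie to the right of 0 in both lines, at 2.46, 2.37, 1.73 and 1.69 in icals3m.

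Other genes of the same wall and growth pathways were also called. Of 15 genes of xyloglucan synthesis 4 were lower and 0 higher in icals3m relative to Col-0 at 48 h, and the same counts held at 72 h (against 7.11% of all genes lower at 48 h and 6.29% at 72 h). CSLC4, the main glucan synthase of the xyloglucan backbone, differed by -1.52 ± 0.26 at 48 h (adjusted p = 3.4e-05) and XLT2, a galactosyltransferase of its side chains, by -1.22 ± 0.17 (adjusted p = 1.1e-06). CSLC5 and CSLC8 differed by -0.77 and -0.71 at 48 h, and at 72 h the 4 values were -0.80 for CSLC4, -0.52 for XLT2, -0.59 for CSLC5 and -0.70 for CSLC8. Of 5 glycosidases that trim xyloglucan 2 were lower at 48 h, the xylosidase XYL1 (-0.48) and the glucosidase BGLC3 (-0.59), and 1 at 72 h, XYL1 (-0.65, adjusted p = 2.33e-06). Of 11 primary-wall cellulose genes 4 were lower at 48 h, led by CESA5 (-0.39), CESA3 (-0.37) and COB (-0.35), and 2 at 72 h, CESA3 (-0.24) and CSI1 (-0.29). None of the 3 secondary-wall cellulose genes and none of the 10 auxin and shade response genes was called by edgeR for either line at any time relative to Col-0. Over the 8 comparisons these lists gave 3 of 24 and 10 of 80 tests at an unadjusted p under 0.05.

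Of 11 tested brassinosteroid genes 2 were lower in icals3m at 48 h, the receptor gene BRI1 (-0.78, adjusted p = 2.41e-06) and the early response gene BEE1 (-2.28, adjusted p = 3.33e-05). At 72 h 4 were lower, among them the growth regulator gene PRE1 (-2.36 ± 0.54, adjusted p = 0.00158), BEE1 (-1.49) and BRI1 (-0.46). Of the touch genes other than XTH22, TCH3 was higher in icals3m at 48 h (2.64 ± 0.51, adjusted p = 0.000224) and TCH2 at 72 h (1.24, adjusted p = 0.0145). For PD-plug the background was 8.3% of all genes called at 12 h and 5.56% at 48 h, and for icals3m at 12 h it was 3.16%. In PD-plug at 12 h CSLC4 (0.79) and XXT5 (0.48), a xyloglucan xylosyltransferase, were higher, and CESA1 (-0.23), the brassinosteroid synthesis gene CPD (-0.45) and the brassinosteroid inactivating gene BAS1 (-1.29) were lower. At 48 h XLT2 (-0.60), XYL1 (-0.34) and CPD (-0.43) were lower and TCH3 (3.05, adjusted p = 7.24e-05) higher in PD-plug. In icals3m at 12 h BGLC1 (0.42, adjusted p = 0.0393) was the 1 gene called in these lists, and none was called in either line at 24 h or in PD-plug at 72 h.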

How the data were processed

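Leaf RNA from 72 libraries (3 genotypes, 2 treatments, 4 times, 3 replicates) was sequenced, per the labels' protocols. The authors deposited 2 matrices of estimated counts per gene, given as whole numbers. The main one holds more cells at exactly 4 (40727) than at 3 (8585) or 5 (10399), which is not explained in the sources used here. The submitters' processing notes name FastQC 0.11.8, Trim Galore 0.5.0, cutadapt 1.7, HISAT2 2.1.0, STAR 2.5, SAMtools 1.4.1, StringTie 1.3.3 and the build TAIR10, with no role or order. How reads shared between near-identical members were counted is not given in the sources used here, and neither is the use of strand.

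Counts were tested as deposited with edgeR 4.0.16 in R 4.3.3: filterByExpr by group (minimum count 10, minimum total 15), TMM scaling, 24 group means, trended dispersion and robust quasi-likelihood fits over 21241 genes (48 residual degrees of freedom). P-values were adjusted by Benjamini-Hochberg over all these genes, with a threshold of 0.05. CPM used the TMM-scaled library sizes. Biological variation was 0.167 as a coefficient. Floors are 3 counts and cover counting error only, as if each count were a single read, which estimated counts need not be. Replicates correlated at 0.968 to 0.981, and 0 of 72 replicate pairs were identical. Same-numbered replicates did not deviate together (r -0.078 to 0.086, 0 of 36 above 0.1), so no pairing was used. Scripts were tested on simulated data.

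Members were taken by symbol, and the members and the pathway and marker lists were chosen with earlier results of these data known. Members past the threshold relative to Col-0 are named (up to 14 per comparison), as are the 4 highest and 4 lowest in the estradiol, line against line and DMSO comparisons, the 3 highest and 3 lowest over time, and the 6 most abundant per length. Members that share a call across a figure or list are named beyond this where counts were small. Alternatives were the STAR matrix, DESeq2 1.42.0, RLE scaling, no filter on low counts, a fit on the 6 libraries of a comparison, a replicate block and leaving out each library. Upstream windows, coordinates and coding identities come from RefSeq's TAIR10.1 assembly, matched by locus for 68 of 68 members.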

Additional observations from a re-analysis of the deposited data

Results flagged for a closer look

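For 15 tests of members, the effect of estradiol differed between icals3m and PD-plug by a direct test of the difference (icals3m log2 effect minus PD-plug log2 effect, quasi-likelihood test in edgeR, adjusted by Benjamini-Hochberg). At 12 h EXPA11 (1.548), EXPA1 (0.9466) and XTH19 (5.8877) were higher in icals3m. The value for XTH19 is a fitted one against PD-plug estradiol libraries at 0 counts and is no measure of size, and the calls for EXPA1 and XTH19 were lost in the STAR matrix (adjusted p = 0.273 and 0.392). At 48 h XTH24 (2.5157), XTH22 (1.1659) and XTH16 (1.1266) were higher in icals3m, and EXPA11 (-1.509), EXPA3 (-1.3631), XTH7 (-1.1831) and EXPA6 (-1.123) were lower. The XTH22 call was lost in 9 of 12 cases with 1 library left out, and without PD-plug 48 h estradiol replicate 1 its adjusted p was 0.0861. XTH7 was not called in the STAR matrix (adjusted p = 0.0676). At 72 h XTH16 (1.2409) was higher in icals3m, and XTH25 (-5.5887), EXPA11 (-2.1418), EXPA10 (-2.1168) and EXPA3 (-1.0357) were lower. The EXPA10 call was lost in the STAR matrix (adjusted p = 0.415), where its counts are far lower than in the main matrix.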

How the results depend on the processing

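No result turned its direction under any alternative. Of 119 results for single members, the STAR matrix kept 82 on the same side of the threshold, RLE scaling 115, no filter on low counts 112, the replicate block 115 and DESeq2 119, and a fit on the 6 libraries compared kept 35 of 49. Counts of called members within icals3m were 2 in the STAR matrix and 7 in the fit on 6 libraries at 24 h (4 in the main analysis), and 7 in the STAR matrix at 48 h (11). Within PD-plug the STAR matrix gave 1 at 48 h (7) and 1 at 72 h (4). Within Col-0 the fit on 6 libraries gave 5 at 24 h (0), and at 48 h the counts were 1 in the STAR matrix, 0 in the fit on 6 libraries and 5 by DESeq2 (3). Relative to Col-0, icals3m had 1 under the replicate block and 2 by DESeq2 at 24 h (0), and 5 in the STAR matrix at 72 h (9), and PD-plug at 48 h had 0 in the STAR matrix and 1 with no filter (3). Line against line at 12 h, the STAR matrix gave 1 (3). The replicate block moved no other count by over 1.5 times. Its effect is given for the numbers alone, since same-numbered samples did not deviate together. The cause of these shifts was not tested. Over all genes the STAR matrix gave 1256 calls for icals3m at 48 h relative to Col-0, against 2840 in the main analysis.

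With 1 library left out at a time, the counts ranged as follows. Line against line they were 1 to 4 at 12 h, 0 to 1 at 24 h, 5 to 8 at 48 h and 4 to 6 at 72 h. Relative to Col-0 they were 0 to 2, 0, 7 to 10 and 3 to 9 for icals3m at the 4 times, with 3 without icals3m 72 h estradiol replicate 1, and 4 to 6, 0, 1 to 6 and 0 for PD-plug. Within icals3m they were 4 to 9, 2 to 3, 7 to 10 and 9 to 12, within PD-plug 8 to 11, 0, 4 to 7 and 1 to 3, and within Col-0 12 to 16, 0, 2 to 4 and 0. For DMSO alone they were 16 to 20 in icals3m and 8 to 10 in PD-plug, and over time in Col-0 28 to 32, 11 to 13 and 6 to 10. Depth limits members near 3 counts (at most 0.0941 CPM), among them XTH19 and XTH29 in groups at 0.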
